A study of Rattus norvegicus with 4 samples.

Results

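The haem, iron and metallothionein genes are 10 rat genes chosen by name: the haem-degrading enzyme gene Hmox1, the ferritin subunit genes Fth1 and Ftl1, the iron transport genes Tfrc, Slc40a1, Slc11a1 and Slc11a2, the iron sensor gene Ireb2, and the metallothionein genes Mt1 and Mt2A. A probe (a short DNA printed on the array to capture 1 transcript) was taken as a member when its RefSeq transcript accession belonged to 1 of these genes. All 10 genes had a probe, with 14 member probes among 45598 gene probes on each array and 16581 named genes in all. The rule uses names only, but the genes were picked for it with earlier results of these data known. The samples were 4 cultures of NR8383, a rat macrophage line that was established by lavage of a healthy lung and grows as a mix of adherent and floating cells. All 4 received the multi-walled carbon nanotube NRCWE006 for 4 h at a dose of 1 cm2 per cm2, after 20 passages and 48 h in 25 cm2 flasks. They form 1 group with biological replicates 1 to 4, each on 1 array. Unexposed control cultures were not analysed here, so no value given is an effect of the nanotubes.

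Macrophages take up old red cells and iron-bearing particles, and haem oxygenase opens the haem ring and frees the iron. Iron that is not used is stored inside ferritin shells made of heavy and light chains, or leaves the cell through ferroportin, and iron enters through the transferrin receptor. When iron is scarce, iron regulatory proteins bind stem-loops in the ferritin mRNAs and hold back their translation, a step that an mRNA array does not measure. They also bind the transferrin receptor mRNA and protect it from decay, which acts on the mRNA level. Metallothioneins are small cysteine-rich proteins that bind zinc and other metals. Their promoters carry metal response elements, the sites of the transcription factor MTF1, whose core is TGCACNC or TGCGCNC.

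The 5' regions of the neighbouring metallothionein genes are shown because 1 of the pair was measured on every array and the other on none. Each window holds 250 bases before and 50 after the annotated start, from RefSeq on build GRCr8 and read 5' to 3' on the minus strand, with the cores found on either strand in capitals. The Mt1 window lies at chr19:10832926-10833225 and the Mt2A window at chr19:10838659-10838958. Between the genes Mt1 and Mt2A, 0 other genes are listed.
Mt1: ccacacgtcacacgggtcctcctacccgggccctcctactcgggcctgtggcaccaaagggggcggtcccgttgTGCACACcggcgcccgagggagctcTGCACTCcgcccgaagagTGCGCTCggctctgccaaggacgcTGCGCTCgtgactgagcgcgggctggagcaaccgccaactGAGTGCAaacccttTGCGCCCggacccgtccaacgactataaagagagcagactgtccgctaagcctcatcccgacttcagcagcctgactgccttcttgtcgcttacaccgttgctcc
Mt2A: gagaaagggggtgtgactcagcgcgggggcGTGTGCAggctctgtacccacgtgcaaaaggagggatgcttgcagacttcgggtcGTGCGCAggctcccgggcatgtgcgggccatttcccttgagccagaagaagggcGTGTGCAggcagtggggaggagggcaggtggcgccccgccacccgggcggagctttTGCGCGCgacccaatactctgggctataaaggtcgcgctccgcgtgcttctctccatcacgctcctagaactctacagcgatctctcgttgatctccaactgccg
The Mt1 window held 6 cores and the Mt2A window 4, none overlapping another and all before the start. Of 33469 windows of this length, 24.2% held 1 or more cores, 0.439% held 4 or more and 0.0388% held 6 or more. RefSeq windows matched 6 of the 10 genes in 7 windows. That of Tfrc held 3 cores, of which a pair overlapped, and those of Slc40a1, Ireb2 and Slc11a2 (with 2 windows) held 0. A match is a run of letters and not a measured site.

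The arrays give spot intensity after background subtraction, in arbitrary units, called the signal here. A call on an array required that over 50% of a probe's spots carried the scanner software's flag for being well above background, and a gene was detected when 1 of its probes was called on all 4 arrays. Levels are log2 signals relative to the 75th percentile of the detected probes of the same array (a signal of 384, 281, 236 and 223 on replicates 1 to 4), and neither signals nor levels compare 1 probe with another. Most member probes were printed once on each array, and the median SD between spots of the same detected probe, over 709 probes printed 10 times, was 0.148, 0.157, 0.168 and 0.224 (log2) on replicates 1 to 4. Replicate 4 stood apart: 656 of its gene spots carried the flag for non-uniform pixels, where the other arrays had 17, 9 and 34, and 2952 probes were called there and nowhere else. Its negative control spots were also brighter, with a 95th percentile of 6.71 against 4.04, 3.53 and 4.03. Of 12 macrophage markers, 4 were detected (Cd68, Spi1, Fcgr1a and Lyz2), beside 11.9% of named genes. Csf1r, Itgam, Cd14, Adgre1 and Mrc1 were called on no array, Siglec1 on 2, and Marco and Mertk on replicate 4 alone. Of the 19 markers with a probe for epithelium, fibroblasts, endothelium, lymphocytes, granulocytes and mast cells, and erythroid cells, 0 were detected. At a share of 11.9%, few of 19 would be detected. Sftpb of lung epithelium (45.0) and Cdh5 of endothelium (62.8) were called on replicate 4 alone. The globin genes Hbb and Hba-a1 were called on no array.

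Ferritin, haem oxygenase 1 and metallothionein 1 transcripts were measured in every culture, while ferroportin, the iron sensor Ireb2, Slc11a2 and metallothionein 2A were not well above background in any. The RNA came from whole cultures, so fewer cells with a transcript and less of it per cell cannot be told apart. Detected genes numbered 4 of 10 (40.0%), namely Hmox1, Fth1, Ftl1 and Mt1, beside 11.9% of 16419 named genes called by the same rule. Slc11a1 and Tfrc were called on some arrays, so that 6 of 10 were called on at least 1 array, beside 29.1% of named genes. Without replicate 4, Slc11a1 joined the detected genes, making 5, while the share of all named genes detected came to 14.8%.

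**Figure D1:**
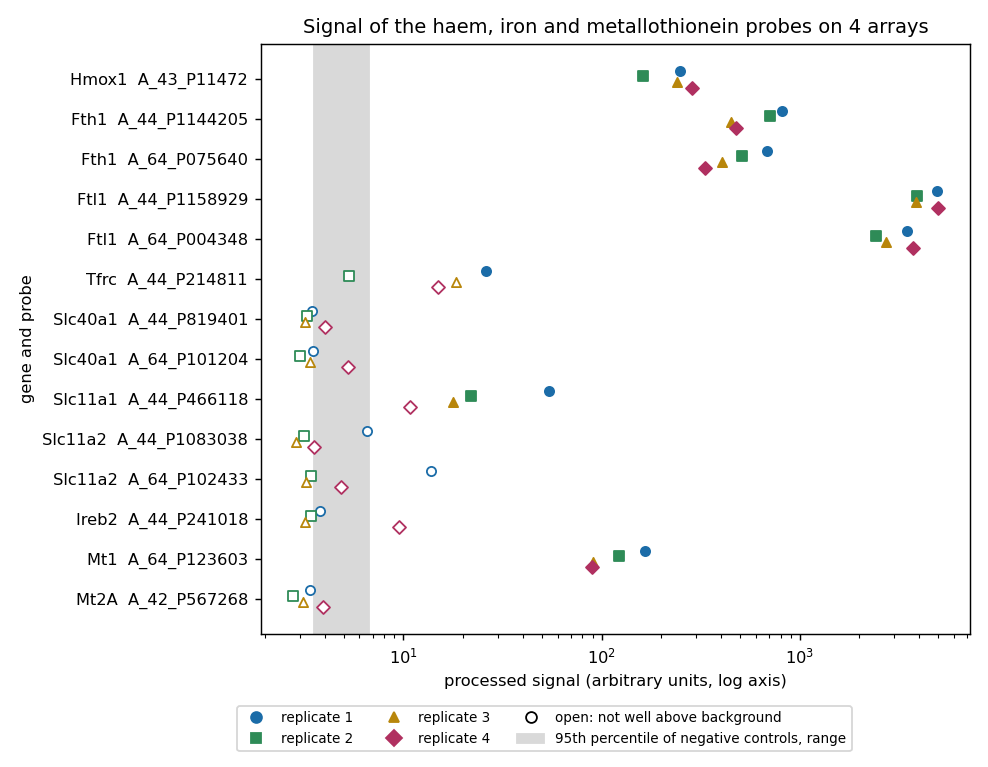
Processed signal (log axis, arbitrary units) of the 14 member probes on 4 arrays, with 1 marker per replicate, filled where the probe was well above background and open where it was not; the grey band spans the 95th percentiles of the negative control spots of the 4 arrays. All markers of Hmox1, Fth1, Ftl1 and Mt1 are filled, and those of Slc40a1 and Mt2A lie below their own array's percentile.

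Hmox1 encodes haem oxygenase 1, the stress-inducible enzyme that splits haem into biliverdin, carbon monoxide and iron. Its probe had signals of 250, 161, 241 and 285 on replicates 1 to 4, each from 1 spot. The levels were -0.62, -0.81, 0.03 and 0.35, with a mean of -0.26 ± 0.54 (SD, n = 4). Replicates 3 and 4 were thus high and replicates 1 and 2 low, and the highest stood 2.24-fold above the lowest. Hmox1 alone among the detected members ranged over more than 2-fold, as did 15.3% of 1946 detected named genes. Its SD was above that of 91.5% of the detected genes, whose median SD was 0.241. That rank depends on the scaling, being 68.5% after quantile normalization, 27.8% without scaling and 6.78% when scaled by all gene probes. It was 92.3% without replicate 4 and 99.3% after normexp background correction, the highest of the alternatives run. The range of Hmox1 was 1.95-fold without replicate 2, 1.77-fold without replicate 4 and 1.78-fold without scaling. Replicate 2 was the lowest on the signals as deposited too, while replicate 1 then lay above replicate 3. When scaled by all gene probes, replicate 4 was the lowest, at -0.56 from the mean of the arrays, a scaling that put 92.8% of detected genes over 2-fold.

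Ftl1 and Fth1 encode the light and heavy chains of ferritin. The heavy chain oxidises iron as it enters the shell, and the light chain helps to form the mineral core. Each gene had 2 probes, called on all 4 arrays. The brighter Ftl1 probe had signals of 4908, 3910, 3844 and 4993 on replicates 1 to 4, and the other had 3474, 2421, 2729 and 3734. In levels these were 3.68, 3.80, 4.03 and 4.49 for the brighter probe (4.00 ± 0.36, SD, n = 4). The other had 3.18, 3.11, 3.53 and 4.07 (3.47 ± 0.44, SD, n = 4). Both probes were highest on replicate 4 and had their lower values on replicates 1 and 2, while the brighter one was lowest on replicate 4 (-0.69 from its mean) when scaled by all gene probes. The brighter one ranged over 1.75-fold, or 1.23-fold without replicate 4 and 1.17-fold after quantile normalization.

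The brighter Fth1 probe had signals of 811, 706, 450 and 478 on replicates 1 to 4, and the other had 686, 511, 405 and 334. Their levels were 1.08, 1.33, 0.93 and 1.1 for the brighter probe (1.11 ± 0.16, SD, n = 4) and 0.84, 0.86, 0.78 and 0.58 for the other (0.77 ± 0.13, SD, n = 4). The brighter probe was lowest on replicate 3 and the other on replicate 4, so the 2 probes agreed only in being highest on replicate 2. The SD of Fth1 was above that of 26.8% of detected genes, and that of Ftl1 above that of 74.7%. The order of these 2 genes turned without scaling, with SDs of 0.42 for Fth1 and 0.20 for Ftl1, and also when scaled by all gene probes (0.85 and 0.47), after quantile normalization (0.18 and 0.10) and without replicate 4 (0.21 and 0.15). Ferritin genes have processed copies in mammalian genomes, and whether these probes also capture such copies was not tested.

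**Figure D2:**
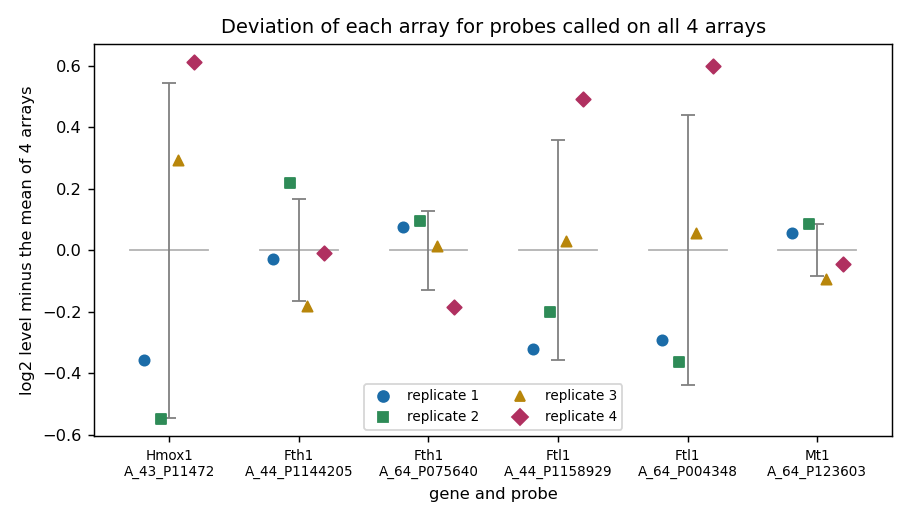
Deviation of each array from the mean of 4 arrays (log2 level) for the 6 member probes called on all arrays, with 1 marker per replicate and bars of ± 1 SD around 0. Replicate 4 is highest for Hmox1 and for both Ftl1 probes under this scaling (but lowest for all 4 genes when scaled by all gene probes), and the Mt1 markers lie within 0.18 of each other, or within 0.89 without scaling.

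Ratios between genes within an array do not depend on any scaling by 1 factor per array. The log2 signal ratio of Hmox1 over Fth1 deviated from its own mean by -0.33, -0.77, 0.47 and 0.63 on replicates 1 to 4, a range of 1.39. That of Hmox1 over Mt1 deviated by -0.42, -0.63, 0.39 and 0.66. On replicates 3 and 4 Hmox1 was thus higher relative to Fth1 and to Mt1 than on the other arrays. The ratio of Hmox1 over Ftl1 had a smaller range of 0.61, with -0.04, -0.35, 0.26 and 0.13. The ratio of Fth1 over Mt1 had the smallest of the 6 ranges, 0.23. Quantile normalization, which is no such scaling, gave a range of 0.94 for Hmox1 over Ftl1 and 0.34 for Fth1 over Mt1. The range of Hmox1 over Fth1 was 0.95 without replicate 2, 1.13 after normexp background correction and 1.42 after quantile normalization. For Hmox1 over Mt1 the range of 1.29 became 1.02 without replicate 4 and 1.51 after quantile normalization. The ratio of Ftl1 over Fth1 differed between arrays, since Fth1 over Ftl1 deviated by 0.29, 0.42, -0.21 and -0.50, a range of 0.92, against 0.48 after quantile normalization and 0.46 after normexp background correction. These ratios rest on single spots except for Mt1, and the part of the quality of replicate 4 in them was not tested.

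**Figure D3:**
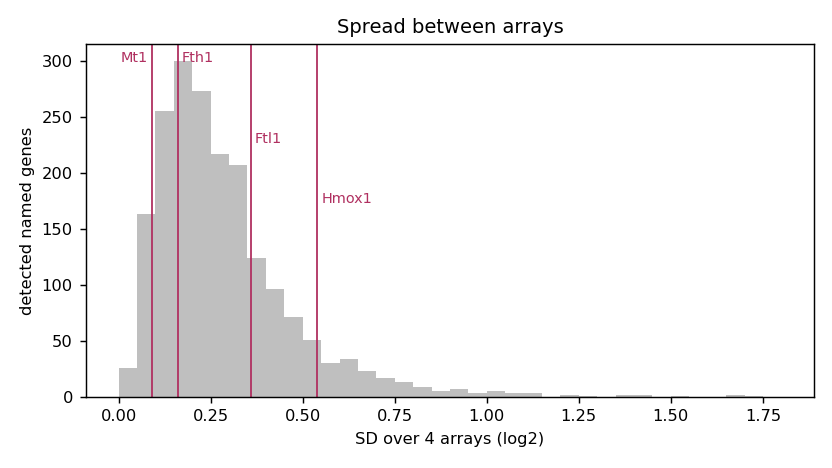
Number of detected named genes (y axis, 1946 genes in all) by SD over 4 arrays (x axis, log2, in steps of 0.05), with a line for each detected member. Mt1 (0.09) and Fth1 (0.16) lie below the median SD of 0.241, and Ftl1 (0.36) and Hmox1 (0.54) above it, but without scaling all 4 (0.20 to 0.42) lie below the median of 0.456. Mt1 is an average of 7 to 10 spots per array, while Fth1, Ftl1 and Hmox1 rest on 1.

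Mt1 encodes metallothionein 1. Its probe was the only member probe printed 10 times, and all 10 spots were well above background on every array. Spots kept on replicate 1 ran from 133 to 186 with a median of 160, and on replicate 2 from 120 to 127 with a median of 121. On replicate 3 they ran from 77.5 to 99.8 with a median of 90.6, and on replicate 4 from 74.7 to 120 with a median of 86.3. The SD between spots of an array lay between 0.03 and 0.20 (log2). The levels were -1.23, -1.20, -1.38 and -1.33 (-1.28 ± 0.09, SD, n = 4). This SD was above that of 6.37% of detected genes. Each Mt1 level averaged 7 to 10 kept spots, while those of Hmox1, Fth1 and Ftl1 rest on 1 spot per array. The part of this averaging in the low SD of Mt1 was not tested. The SD of Mt1 was 0.42 without scaling, where Mt1 had the widest range of the 4 detected members (1.85-fold), with replicate 1 high and replicates 3 and 4 low. Scaled by all gene probes, the SD was 0.84 and replicate 4 was the lowest. The software flagged 1 of the 10 spots on replicate 1 and 3 on replicate 2 as non-uniform or population outlier. Among them was a spot of 622 on replicate 2. Flagged spots of 140 on replicate 1 and 124 on replicate 2 lay within the range of the kept spots. With all flagged spots kept, the SD over arrays was 0.18.

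**Figure D4:**
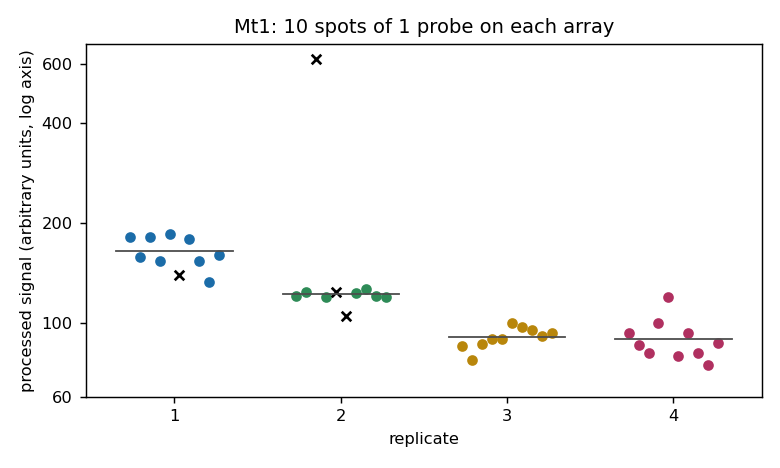
Processed signal (log axis, arbitrary units) of the 10 Mt1 spots on each array (x axis, replicate), with dots for spots kept, crosses for flagged spots left out and a line at the mean of the kept spots. The cross at 622 on replicate 2 lies far above the other spots, which lie at 105 to 127 on that array.

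Mt2A encodes metallothionein 2A, from the gene next to Mt1. Its probe, printed once, had signals of 3.38, 2.77, 3.10 and 3.93 on replicates 1 to 4, below the 95th percentile of the negative control spots on each array (4.04, 3.53, 4.03 and 6.71). The lowest signal of any gene spot well above background was 12.7, 13.5, 13.7 and 17.7, so a transcript giving less signal than this was not called. The result for Mt2A rests on 1 probe, and whether the Mt1 probe also captures Mt2A transcripts was not tested. The more distant family genes Mt3, expressed mainly in brain, and Mt4, of stratified epithelia, were called on no array either.

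Among the iron transport genes, Slc11a1 was the most often called. It encodes NRAMP1, a metal transporter of the phagosome membrane in macrophages that acts against microbes. Its signals were 54.4, 21.8, 17.7 and 10.8 on replicates 1 to 4, well above background on replicates 1 to 3. The levels were -2.82, -3.69 and -3.74 on those 3 arrays, of which replicate 1 was high. Replicate 4 was also the array on which 764 probes called on the other 3 were not called, and the signal of 10.8 lay above the negative control percentile of 6.71 there.

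Tfrc encodes transferrin receptor 1, which brings transferrin-bound iron into cells. Its probe, printed as 2 spots, gave signals of 30.2 and 21.9 on replicate 1, 7.65 and 3.01 on replicate 2, 18.8 and 18.2 on replicate 3, and 15.0 and 15.0 on replicate 4. Both spots were well above background on replicate 1, 1 of them on replicate 3 and 0 on replicates 2 and 4. All 4 array means exceeded the 95th percentile of the negative controls, though the dimmer spot of replicate 2 did not.

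Slc40a1 encodes ferroportin, the iron exporter. Its probes had signals between 3.17 and 4.00 and between 3.02 and 5.23, and neither passed the negative control percentile on any array. Slc11a2 encodes DMT1, which carries iron out of endosomes into the cytosol. Its probes had 6.56 and 13.8 on replicate 1, both above that array's percentile of 4.04 but not called, and between 2.88 and 4.82 on the other arrays. Ireb2, which encodes iron regulatory protein 2, had 3.78, 3.43, 3.17 and 9.54 on replicates 1 to 4. It passed the percentile of negative controls on replicate 4 alone. With calls set by the negative control spots in place of the software's flag, 8 of the 10 genes were called on at least 1 array and 5 on all, while the shares of all named genes came to 59.7% and 20.3%.

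Beyond the members, 48 of 52 other listed genes of iron, haem and metal handling had a probe. Of these, 11 (22.9%) were detected, 10 were called on some arrays and 27 on none, beside the 11.9% of named genes detected. Each of the 11 was measured by a probe printed once, except Nfe2l2 with 2 spots, and 3 of them (Glrx5, Blvra and Alad) had another probe called on no array. The classes below hold few genes, and differences between them were not tested.

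Haem synthesis had 4 of 9 genes detected, beside 11.9% of named genes. Alas1, the first and rate-limiting enzyme of haem synthesis outside red cell precursors, had signals of 958, 826, 689 and 611 on replicates 1 to 4 and a level of 1.47 ± 0.11 (SD, n = 4). Alad, the next enzyme, had a level of -1.76 ± 0.15, and Urod, uroporphyrinogen decarboxylase, -0.31 ± 0.04 (SD, n = 4). Alas2, the form of red cell precursors, was called on no array. Alas1, Alad and Urod varied by less than the median gene.

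The genes of haem breakdown had 3 of 5 detected, beside 11.9% of named genes. Blvra and Blvrb, named as biliverdin reductases, had levels of -1.50 ± 0.39 and -2.48 ± 0.52 (SD, n = 4). Blvrb was at -2.80, -2.33, -1.82 and -2.97 on replicates 1 to 4, so unlike Hmox1 it was low on replicate 4, and its levels ranged over more than 2-fold. Nfe2l2, which encodes NRF2, an activator of Hmox1 and the ferritin genes, had -2.44 ± 0.32 (SD, n = 4) and its lower values on replicates 2 and 4. Hmox2, the constitutive haem oxygenase, had signals of 38.3, 25.2, 27.2 and 14.1 and was called on replicates 1 to 3. Bach1, a haem-sensing repressor of Hmox1, was called on replicate 4 alone, with 2.97, 3.21, 8.15 and 28.3. Its other probe, with signals between 3.63 and 5.73, was called on no array.

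Of the iron sensing and ferritin turnover genes, 2 of 3 with a probe were detected, beside 11.9% of named genes. Aco1, which encodes iron regulatory protein 1, had signals of 200, 135, 128 and 65.2 and levels of -0.94, -1.06, -0.88 and -1.77 (-1.16 ± 0.41, SD, n = 4). It was thus called in all cultures, unlike Ireb2, and was lowest on replicate 4. Pcbp2, an RNA-binding protein that also carries iron to ferritin, had -1.61 ± 0.38 (SD, n = 4). Ncoa4, the receptor that delivers ferritin to the lysosome, was called on replicates 1 to 3 with signals of 121, 54.1 and 58.0, and had 16.0 on replicate 4. Ncoa4 was named after its values were seen. Of the mitochondrial genes, 2 of 7 were detected, beside the same 11.9%. Levels were -1.92 ± 0.44 for Slc25a28, the iron importer mitoferrin 2, and -1.30 ± 0.16 for Glrx5, a carrier of iron-sulphur clusters (SD, n = 4).

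Genes of systemic iron and of haem or haemoglobin uptake were mostly not called well above background. None of 12 genes of iron uptake, export and systemic iron and none of 8 of haem transport and uptake was detected. The same held for the 4 zinc and metallothionein genes. Over all named genes 11.9% were detected, so few or none would be detected in groups this small at that share. Tf (transferrin), Hamp (hepcidin), Mtf1 and Slc48a1 (the haem transporter HRG1) were called on no array. Slc48a1 had signals of 11.1, 13.7, 5.95 and 4.59 on replicates 1 to 4. Cd163, the haemoglobin scavenger receptor, had 3.79, 3.20, 3.65 and 25.5, and Hp (haptoglobin) had 3.22, 3.33, 4.97 and 42.5. Both were called on replicate 4 alone, as were Bach1, Tfr2 and Lrp1, the last 2 named after their values were seen. They make 5 of the 10 genes called on some arrays, beside 2952 probes of the whole array called on replicate 4 alone and 918, 145 and 96 called on replicates 1, 2 and 3 alone. Bach1 and Tfr2 each had another probe that was called on no array. The part of array quality in calls on single arrays was not tested.

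Hmox1 was the only detected member with levels ranging over more than 2-fold, and the detected genes most like it over the 4 arrays were Tmem222, Rheb, Bckdha, Il1a and Hnrnpc. The root mean square difference from Hmox1, after each gene's mean was subtracted, lay between 0.144 for Tmem222 and 0.15 for Il1a and Hnrnpc (log2). Each of the 5 was measured by 1 spot per array, at levels between -3.98 (Rheb) and -1.66 (Hnrnpc). The lowest of these lie near the dimmest signals that were well above background. All 5 were highest on replicate 4, and the part of the quality of that array in the likeness was not tested. Il1a, which encodes the cytokine interleukin 1 alpha, had levels of -3.48, -3.52, -2.83 and -2.78 on replicates 1 to 4. In all, 56 of 1945 genes lay within 0.25 of the Hmox1 pattern. With 4 arrays of 1 group this likeness is a description of these arrays.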

How the data were processed

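Per the file headers, the deposited values are spot intensity from 1-colour (Cy3) Agilent arrays, 1 array per culture, and the processed signal is background-subtracted and not scaled between arrays. The submitters' processing notes name Agilent Feature Extraction version 11.0.1.1. Flags (other columns of 0 or 1) were used as deposited. Per the labels, 100 ng of RNA (integrity number over 7.5) went into labelling.

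The 4259 control spots and spots flagged non-uniform or population outlier were left out (596, 546, 560 and 1296 gene spots on replicates 1 to 4), and log2 signals of a probe's spots were averaged. No gene spot was saturated. Under 50% of probes were detected, so arrays were scaled by detected probes. The brightest detected probe gave a gene's level. Accessions were matched to the RefSeq table of GRCr8 (21109 of 45598 probes). The build in the headers is older, so no gene coordinates are printed from it. Members and lists were chosen with earlier results of these data known. Named were all members, every other listed gene detected except 1 that is counted but not reported here, some listed genes fixed by name, and the 5 genes most like a member ranging over 2-fold. With 1 group there was no test. The number of arrays limits the precision. The spread, scaling and likeness steps were checked on simulated data with independent noise that was equal on all arrays. That setting lacks the noisier spots of replicate 4, so it cannot show how reliable the values given here are. The planned normexp correction (offset 50) used the median signal, as the files hold no mean. Tools were Python 3.11.15, numpy 2.4.6, pandas 2.3.3, R 4.3.3 and limma 3.58.1.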

Additional observations from a re-analysis of the deposited data

Results flagged for a closer look

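Of 17 sets of 4 levels examined (the 6 member probes called on all arrays and the 11 other detected genes), 1 had an array far from the rest. Slc25a28, which encodes the mitochondrial iron importer mitoferrin 2, was at -1.68, -1.70, -1.71 and -2.58 on replicates 1 to 4, and its gap below the others took 0.967 of the whole range, above Dixon's critical value for 4 values. Its signals were 120, 86.3, 72.0 and 37.2, each from 1 spot, so before scaling replicates 1 to 3 were not alike. The mark belongs to levels scaled by detected probes, and other scalings were not examined for it. The part of the quality of replicate 4 in it was not tested. Chance alone gives about 1 such set in 20. None of the 6 member probes was so marked.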

How the results depend on the processing

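No paired analysis was possible because there is 1 group. The count of detected members was 4 and stayed between 4 and 5 under every alternative run, with Slc11a1 the gene that joined, while the share of named genes detected lay between 11.9% and 20.3%. The count of members called on at least 1 array was 6 and lay between 5 and 8, while that share of named genes lay between 21.8% and 59.7%. The 8 came with calls from negative control spots (59.7%) and the 5 without replicate 1 (26.1%). The count of other detected genes was 11 and lay between 11 and 16, beside the same 11.9% to 20.3% of named genes detected. The count of detected members ranging over more than 2-fold was 1 (Hmox1). It was 2 with calls from negative control spots (33.5% of all detected genes were over 2-fold there) and 2 with calls on at least 3 of 4 arrays (24.5%), where Slc11a1 joined, 4 when scaled by all gene probes, and 0 without scaling. Leaving out 1 replicate gave 0 to 1, with 0 without replicate 2 (13.7% of detected genes) and 0 without replicate 4 (3.66%). It was 1 with flagged spots kept (16.3%), quantile normalization (39.9%), normexp (2.0%) or the mean over probes (14.7%). Scaling by all gene probes put 92.8% of detected genes over 2-fold, and no scaling 52.8%. Scaled by all gene probes, replicate 4 was the lowest array for all 4 detected members, with deviations of -0.56 for Hmox1, -1.18 for Fth1, -0.69 for Ftl1 and -1.22 for Mt1. Of 88 levels and SDs of single members, 61 moved by less than their SD and 27 by more, of which 22 were levels, whose zero point changes with the scaling. Values of members not above background have no order between arrays.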
